A study of Homo sapiens with 16 samples.

Results

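The genes described here encode the sensors of double-stranded RNA and the proteins that work directly with them: DDX58 (RIG-I), IFIH1 (MDA5), DHX58 (LGP2), MAVS, TLR3, EIF2AK2 (PKR) and ADAR. These 7 of the 59428 genes in the count table were taken by name, with earlier results of these data known. All 7 were found, DDX58 under that older symbol of RIGI. Their RNA was measured in 2 ovarian carcinoma cell lines, OVCAR3 with wild-type BRCA1 and UWB1.289 with a mutated BRCA1 gene. Cells received either the vehicle DMSO or olaparib, an inhibitor of the poly(ADP-ribose) polymerases that act at DNA breaks, for 96 h. The olaparib concentration was 7.5 µM for OVCAR3 and 3.5 µM for UWB1.289, in each case the half-inhibitory concentration determined for that line. Each of the 4 groups had 4 replicate libraries, 16 in all. Each BRCA1 state is represented by a single cell line, the lines grew in different media and received different concentrations, so BRCA1 status, line, medium and dose cannot be told apart in any comparison between the lines. The labels say that the experiment was repeated, without naming separate cultures, so p-values measure the spread between these libraries.

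RIG-I and MDA5 are helicases of the cytosol that bind viral or self double-stranded RNA and pass the signal to MAVS, an adaptor on mitochondria, from which kinases activate the transcription factors IRF3 and IRF7 and the interferon genes. LGP2 is a related helicase without the signalling domains and modulates the other receptors. TLR3 recognises double-stranded RNA in endosomes and signals through TICAM1 (TRIF). PKR is a kinase that double-stranded RNA activates and that slows translation by phosphorylating eIF2 alpha. ADAR edits adenosines in double-stranded RNA and thereby limits its recognition by MDA5 and PKR. Several of these genes are themselves interferon-stimulated genes, so that their RNA rises in cells exposed to interferon.

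The libraries were read from the 3' ends of transcripts and held 5599571 to 7730228 counts each. The first principal component of all genes carried 82.9% of the variance and separated the lines. Carcinoma markers were found above 3 counts for 11 of 11 genes in OVCAR3 and for 9 of 11 in UWB1.289, where WT1 and ESR1 had at most 3 counts in any library. Levels are given as CPM, the share of a library's counts with library sizes scaled by TMM over the 16 libraries. A gene passed the test at an adjusted p below 0.1 in edgeR's quasi-likelihood test with Benjamini-Hochberg adjustment over all genes tested, and was called differentially expressed if in addition its log2 fold change was beyond 1 and its average normalised count above 10. In bulk libraries such as these, fewer cells expressing a gene and less RNA per cell cannot be told apart.

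The promoters of the genes were searched for letters that interferon-stimulated genes can carry, and those with a match are shown. RefSeq windows from 250 bases before to 50 bases after the start site (GRCh38.p14) were at hand for 6 of the 7 genes, DHX58 excepted. The core of the interferon-stimulated response element was written as GAAANNGAAA and read on both strands. It is held by 1255 of 35116 promoter windows, or 3.57%. The windows of IFIH1, EIF2AK2 and TLR3 held it, and those of RIGI, MAVS and the 3 windows of ADAR did not. Of the genes that rose with olaparib in UWB1.289, IFIH1 and EIF2AK2 thus held it, ADAR did not, and DHX58 had no window. The matches are shown in capitals in the stretches below, each written 5' to 3' on the strand of its gene, for IFIH1 chr2:162318685-162318934 (minus strand), for EIF2AK2 chr2:37156971-37157040 (minus strand) and for TLR3 chr4:186069096-186069165 (plus strand).
IFIH1: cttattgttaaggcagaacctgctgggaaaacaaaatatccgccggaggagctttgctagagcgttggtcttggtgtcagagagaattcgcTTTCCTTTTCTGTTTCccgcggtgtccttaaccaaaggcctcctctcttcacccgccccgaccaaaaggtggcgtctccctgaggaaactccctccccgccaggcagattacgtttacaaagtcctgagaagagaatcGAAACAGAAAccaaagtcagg
EIF2AK2: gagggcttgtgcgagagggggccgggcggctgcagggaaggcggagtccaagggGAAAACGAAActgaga
TLR3: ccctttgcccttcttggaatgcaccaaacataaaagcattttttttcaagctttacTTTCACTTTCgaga
IFIH1 had 3 matches, of which the pair beginning 159 and 153 bases before the start overlap and read on the opposite strand, and the other begins 21 bases before the start. The single match of EIF2AK2 begins 6 bases before its start and runs across it, and that of TLR3 begins 4 bases before its start on the opposite strand. A second motif, the STAT element written as TTCNNNGAA (the same letters on both strands), is held by 7.66% of the windows and among these genes by TLR3, at 178 and 50 bases before the start. These are matches of letters and were not tested as binding sites.

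In UWB1.289 cells the RNA of IFIH1, DHX58, EIF2AK2 and ADAR was higher with olaparib than with DMSO, and that of MAVS was not distinguishable between the groups. The increases were 3.48-fold for IFIH1, 2.48-fold for DHX58, 1.85-fold for EIF2AK2 and 1.63-fold for ADAR. Of the 5 genes with enough counts to be tested, 4 rose and 0 fell, whereas 7.77% of the 12748 genes tested rose and 6.10% fell. IFIH1 and DHX58 were called differentially expressed, a call made upwards for 1.93% of the genes tested. The median log2 fold change was 0.89 over the 5 genes and -0.0044 over all genes tested. Counted from the largest increase of the 12748 genes, IFIH1 stood at place 80, DHX58 at 158, EIF2AK2 at 350, ADAR at 535 and MAVS at 7244.

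In OVCAR3 cells 0 of the 6 genes tested passed the test in edgeR, where 15.5% of 13031 genes rose and 16% fell. The count was also 0 at an unadjusted p below 0.05, which 4671 of the 13031 genes reached. With DESeq2 it was 0 as well, and the share over all genes was not taken there. None was differentially expressed, against 2.90% of genes called upwards. The median log2 fold change over the 6 genes was 0.04, beside -0.01 over all genes tested. Leaving out OVCAR3 DMSO replicate 1 or OVCAR3 olaparib replicate 4 brought the count to 1, by TLR3, a gene of few counts.

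**Figure D1:**
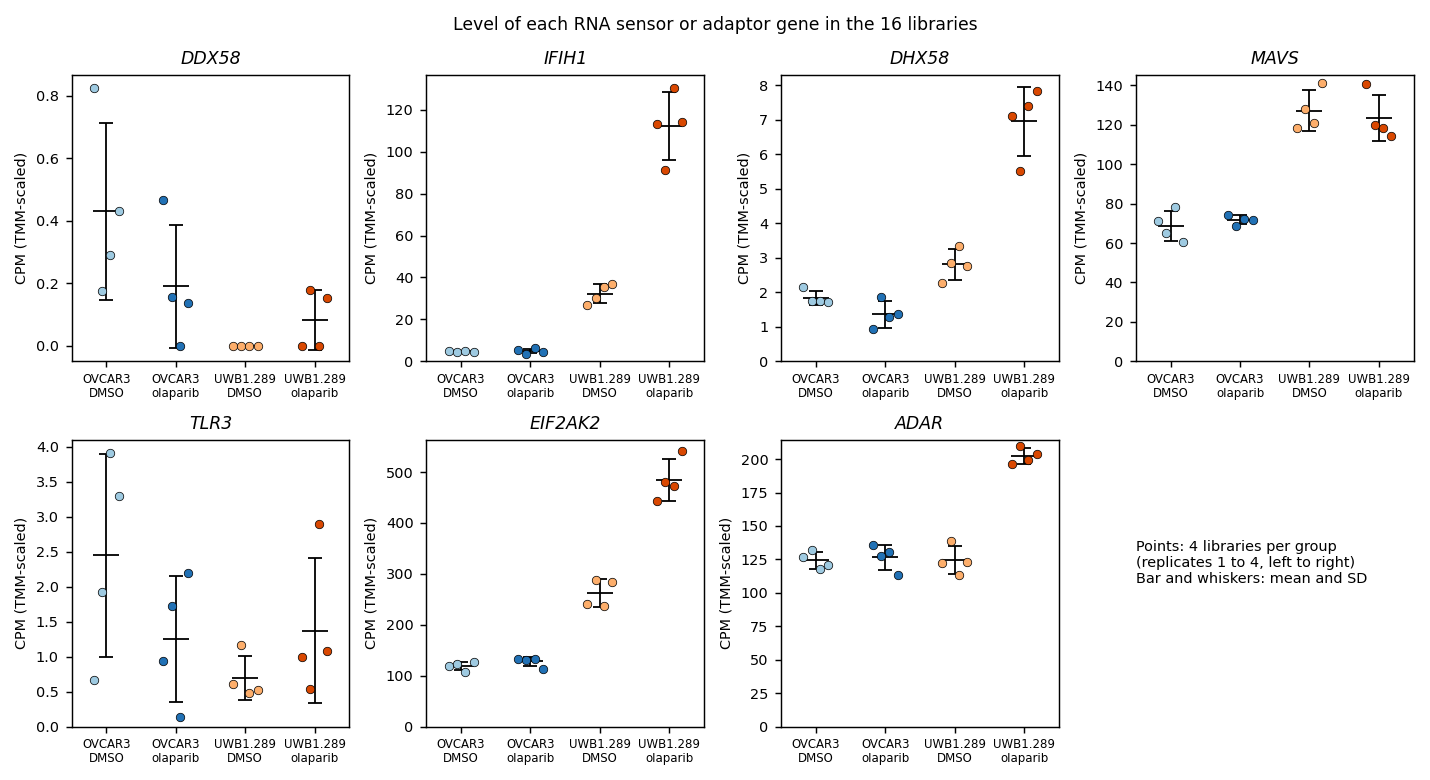
Level of each gene in CPM (linear axes, a separate scale for each gene) in the 4 groups, with 1 point per library and the mean and SD drawn as a bar with whiskers. The 4 UWB1.289 libraries with olaparib lie above the 4 with DMSO for IFIH1, DHX58, EIF2AK2 and ADAR, and the OVCAR3 groups overlap for every gene.

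IFIH1 (ENSG00000115267, chromosome 2, 162267074 to 162318684, minus strand) encodes MDA5, the sensor of long double-stranded RNA. In UWB1.289 it had 26.7, 30.2, 35.6 and 36.7 CPM in the DMSO libraries and 113, 91.1, 130.5 and 114 CPM in the olaparib libraries. The lowest olaparib library, replicate 2, was well above the highest DMSO library. The log2 fold change was 1.80 (SE 0.118, 95% CI 1.55 to 2.04, edgeR adjusted p = 1.98e-10). In OVCAR3 it had 5.13, 4.38, 4.78 and 4.59 CPM with DMSO and 5.13, 3.59, 6.12 and 4.52 CPM with olaparib. These groups overlapped, with the highest and the lowest library both in the olaparib group. The log2 fold change there was 0.04 (SE 0.238, 95% CI -0.454 to 0.54, edgeR adjusted p = 0.922), and it turned to -0.08 without OVCAR3 olaparib replicate 3. Ordered by mean level, UWB1.289 with olaparib (112.2 ± 16.2 CPM, SD, n = 4) stood above UWB1.289 with DMSO (32.3 ± 4.70), followed by OVCAR3 with olaparib (4.84 ± 1.06) and with DMSO (4.72 ± 0.318), and only the last neighbours in this order overlapped.

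DHX58 (ENSG00000108771, chromosome 17, 42101404 to 42112714, minus strand) encodes LGP2, the receptor that modulates MDA5 and RIG-I. It had 15 to 21 counts per library in UWB1.289 with DMSO and 31 to 51 with olaparib, or 2.26, 2.84, 3.35 and 2.77 CPM against 7.10, 5.52, 7.38 and 7.82 CPM. Every olaparib library was above every DMSO library, with the lowest of them, replicate 2, nearest to the DMSO group. The log2 fold change was 1.31 (SE 0.245, 95% CI 0.805 to 1.82, edgeR adjusted p = 0.000992). In OVCAR3 the levels were 2.15, 1.75, 1.74 and 1.72 CPM with DMSO and 0.933, 1.87, 1.28 and 1.37 CPM with olaparib. Olaparib replicate 2 lay inside the DMSO group and the other 3 lay below it. The log2 fold change was -0.42 (SE 0.364, 95% CI -1.18 to 0.339, edgeR adjusted p = 0.439) on 6 to 13 counts per library. The order of means ran from UWB1.289 with olaparib (6.95 ± 1.0 CPM, SD, n = 4) over UWB1.289 with DMSO (2.81 ± 0.446) and OVCAR3 with DMSO (1.84 ± 0.207) to OVCAR3 with olaparib (1.36 ± 0.388), and again only the OVCAR3 groups overlapped.

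EIF2AK2 (ENSG00000055332, chromosome 2, 37099210 to 37157522, minus strand) encodes PKR, the kinase of eIF2 alpha. In UWB1.289 it had 241, 287, 236.5 and 285 CPM with DMSO and 443, 481, 472 and 542 CPM with olaparib. The groups did not overlap, and the DMSO libraries formed a lower pair (replicates 1 and 3) and a higher pair (replicates 2 and 4). The log2 fold change was 0.89 (SE 0.0868, 95% CI 0.707 to 1.07, edgeR adjusted p = 1.55e-07), below the limit of 1 for differential expression. In OVCAR3 the values were 119, 123, 107 and 127 CPM with DMSO and 133, 132, 133 and 113 CPM with olaparib. Of the olaparib libraries 3 were above the DMSO group and replicate 4 was inside it. This was a log2 fold change of 0.11 (SE 0.0825, 95% CI -0.0656 to 0.279, edgeR adjusted p = 0.381). The means in order were 484 ± 41.5 CPM (SD, n = 4) in UWB1.289 with olaparib and 262 ± 27.4 with DMSO, then 128 ± 9.67 in OVCAR3 with olaparib and 119 ± 8.44 with DMSO. Only the last neighbours overlapped. Of the last 500 exonic bases of the gene, 35 are also covered by GPATCH11 on the other strand.

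ADAR (ENSG00000160710, chromosome 1, 154581695 to 154628013, minus strand) encodes the enzyme that edits adenosine to inosine in double-stranded RNA. It had 122, 138.5, 113 and 123 CPM in UWB1.289 with DMSO and 196, 209.6, 199.6 and 204 CPM with olaparib. The groups did not overlap, and the olaparib libraries lay close to one another. On the log2 scale the change was 0.71 (SE 0.0814, 95% CI 0.536 to 0.875, edgeR adjusted p = 2.14e-06). In OVCAR3 it had 126.5, 132, 118 and 121 CPM with DMSO and 136, 127, 130.3 and 113 CPM with olaparib. The olaparib group held both the highest and the lowest library and enclosed the DMSO group. Olaparib against DMSO gave a log2 change of 0.03 (SE 0.0797, 95% CI -0.135 to 0.197, edgeR adjusted p = 0.822), and it was -0.0036 without OVCAR3 olaparib replicate 1. UWB1.289 with olaparib (202 ± 5.74 CPM, SD, n = 4) stood above OVCAR3 with olaparib (127 ± 9.52), UWB1.289 with DMSO (124 ± 10.5) and OVCAR3 with DMSO (124 ± 6.54), and these last 3 groups overlapped. ADAR makes a long interferon-inducible and a short constitutive isoform, which reads from the 3' end do not separate.

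MAVS (ENSG00000088888, chromosome 20, 3846799 to 3876123, plus strand) encodes the mitochondrial adaptor to which RIG-I and MDA5 signal. It had 118, 128, 121 and 141.5 CPM in UWB1.289 with DMSO and 140.5, 119.8, 118 and 115 CPM with olaparib. The groups covered nearly the same range, each with a single library near its top. This was a log2 fold change of -0.04 (SE 0.0882, 95% CI -0.227 to 0.139, edgeR adjusted p = 0.82), and 0.0090 without UWB1.289 DMSO replicate 4. In OVCAR3 it had 71.1, 65.3, 78.1 and 60.4 CPM with DMSO and 74.5, 68.8, 72.2 and 71.6 CPM with olaparib. All 4 olaparib libraries lay inside the range of the DMSO group. On the log2 scale the change was 0.07 (SE 0.0909, 95% CI -0.124 to 0.256, edgeR adjusted p = 0.653). By mean level, UWB1.289 with DMSO (127 ± 10.4 CPM, SD, n = 4) and with olaparib (123 ± 11.7) overlapped, as did OVCAR3 with olaparib (71.8 ± 2.31) and with DMSO (68.7 ± 7.62), and the lines were apart.

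TLR3 (ENSG00000164342, chromosome 4, 186068911 to 186088073, plus strand), the endosomal receptor, was near the limit of detection. Its raw counts in OVCAR3 were 4, 11, 27 and 23 with DMSO and 6, 11, 1 and 16 with olaparib. The spread within each group was wide, and the groups overlapped. Olaparib against DMSO gave a log2 change of -0.98 (SE 0.529, 95% CI -2.09 to 0.121, edgeR adjusted p = 0.192). Without OVCAR3 DMSO replicate 1 it was -1.29 (adjusted p = 0.0839), and without OVCAR3 olaparib replicate 4 it was -1.43 (adjusted p = 0.0467), so that each of these libraries decided whether TLR3 passed. In the other direction it was -0.59 (edgeR adjusted p = 0.421) without OVCAR3 olaparib replicate 3 and -0.66 (edgeR adjusted p = 0.485) without OVCAR3 DMSO replicate 3. In UWB1.289 the counts were 4, 7, 3 and 4 with DMSO and 6, 3, 18 and 7 with olaparib, and the gene did not pass the filter on low counts. Without the filter the log2 change was 0.98 with an SE of 0.585 (edgeR adjusted p = 0.432), and DESeq2 gave no adjusted p. A single olaparib library, replicate 3, stood above the rest. The order of means was OVCAR3 with DMSO (2.45 ± 1.45 CPM, SD, n = 4), UWB1.289 with olaparib (1.37 ± 1.04), OVCAR3 with olaparib (1.25 ± 0.901) and UWB1.289 with DMSO (0.695 ± 0.320), and every pair of neighbours overlapped.

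DDX58 (RIG-I, named RIGI in GENCODE release 44, ENSG00000107201, chromosome 9, 32455302 to 32526208, minus strand) had too few counts to pass the filter on low counts in any comparison. It had 5, 1, 2 and 3 counts in OVCAR3 with DMSO and 3, 1, 0 and 1 with olaparib. In UWB1.289 it had 0 counts in each DMSO library and 0, 1, 0 and 1 with olaparib. A group with no count in a library is still compatible with up to 3 counts there, so no order or fold is given. The table counts reads by gene, and in release 44 of the annotation 479 of the last 500 exonic bases of RIGI (95.8%) also belong to another protein-coding gene on the same strand, ENSG00000288684 (chromosome 9, 32455323 to 32552603). The other 6 genes share none of these bases with a gene on their own strand. The counts were made with release 38, in which the row of that neighbour was not analysed here. The level of RIG-I RNA is therefore not read from its count, and the part of the shared bases in it was not tested. In fits without the filter DDX58 passed for neither olaparib comparison (edgeR adjusted p = 0.544 in OVCAR3 and 0.519 in UWB1.289, and DESeq2 gave no adjusted p).

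**Figure D2:**
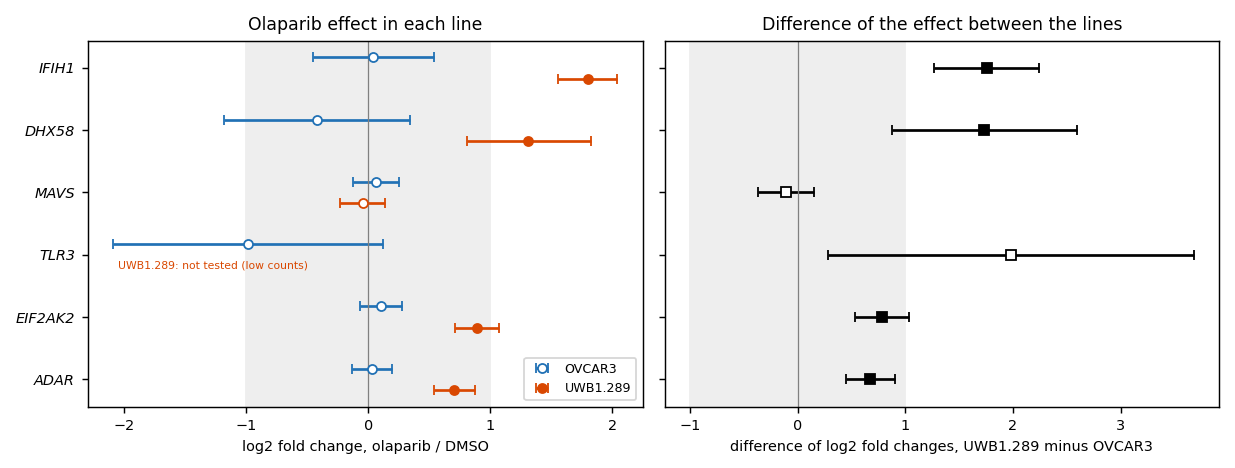
Left, log2 fold change of olaparib against DMSO in each line with its 95% CI (filled, passed the test; open, did not pass); right, the difference between the lines as a log2 value, UWB1.289 minus OVCAR3, with its 95% CI. Shading marks values within 1 of 0. IFIH1, DHX58, EIF2AK2 and ADAR are filled in UWB1.289 and in the difference, and MAVS is near 0 throughout.

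Whether the response differed between the lines was tested as the difference of the olaparib effects, UWB1.289 minus OVCAR3, over all 16 libraries. Of the 6 genes tested, 4 passed in the direction of a larger effect in UWB1.289 and 0 in the other, where 5.09% and 5.83% of 14243 genes passed. IFIH1 and DHX58 also met the fold and count limits, as did 2% of genes in this direction. The log2 difference was 1.75 for IFIH1 (SE 0.239, 95% CI 1.27 to 2.24, edgeR adjusted p = 8.83e-06), or 3.37-fold. For DHX58 it was 1.73 (SE 0.418, 95% CI 0.879 to 2.59, edgeR adjusted p = 0.00778). EIF2AK2 differed by 0.78 (SE 0.121, 95% CI 0.535 to 1.03, edgeR adjusted p = 5.45e-05) and ADAR by 0.68 (SE 0.112, 95% CI 0.448 to 0.904, edgeR adjusted p = 0.000127). These 4 genes thus differed between the lines in the response itself. For MAVS the log2 difference was -0.11 (SE 0.128, 95% CI -0.369 to 0.153, edgeR adjusted p = 0.708). For TLR3 it was 1.98 with a wide interval (SE 0.831, 95% CI 0.281 to 3.68, edgeR adjusted p = 0.158) on an average count of 9.33. TLR3 passed without OVCAR3 DMSO replicate 1 (2.28, adjusted p = 0.0902) and without OVCAR3 olaparib replicate 4 (2.43, adjusted p = 0.0747). This comparison uses the same libraries as the effects within each line and is not independent of them.

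**Figure D3:**
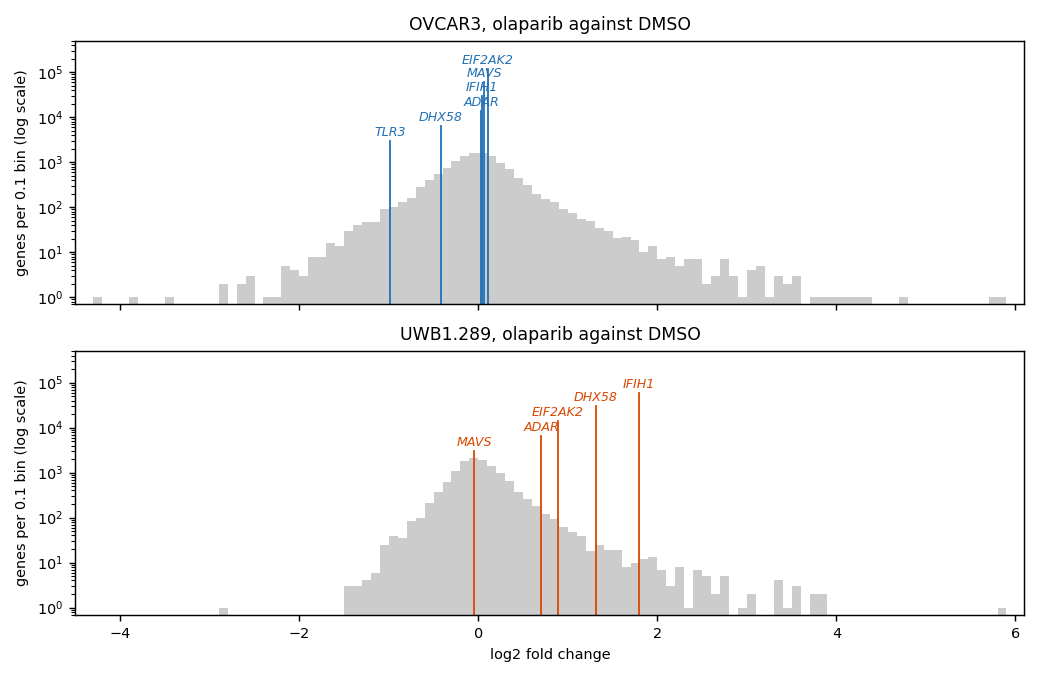
Number of genes by log2 fold change (bins of 0.1, logarithmic vertical axis) for olaparib against DMSO in OVCAR3, top, and UWB1.289, bottom, with the tested RNA sensor and adaptor genes marked by lines whose height carries no value. In UWB1.289 IFIH1 and DHX58 stand in the right tail at 1.80 and 1.31, while in OVCAR3 IFIH1, MAVS, EIF2AK2 and ADAR stand within 0.11 of 0.

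The 4 genes that rose in UWB1.289 were also those with all 4 olaparib libraries above all 4 DMSO libraries, an arrangement shown by 7.73% of genes tested in that line. In OVCAR3 it was shown by 0 of the 6 genes and by 12.4% of genes tested. Markers of white blood cells moved along with the UWB1.289 result. The summed level of 8 such markers was 7.66 to 11.6 CPM with DMSO and 15.8 to 19.7 CPM with olaparib, and 3 of 8 against 4 of 8 markers exceeded 3 counts in a library. The mean of CD14 was 3.17 and 7.71 CPM and that of PTPRC 6.14 and 7.89 CPM, while CD3E, GZMB and CLEC9A had 0 counts in every UWB1.289 library. In OVCAR3 the same sum was 1.93 to 2.90 CPM with DMSO and 1.99 to 4.04 CPM with olaparib. The summed level of 6 stromal and endothelial markers was 49.1 to 71 CPM in UWB1.289 with DMSO and 33.2 to 40.6 CPM with olaparib, and in OVCAR3 24 to 31.3 and 33.3 to 40.2 CPM. The sum of the 11 carcinoma markers was 7510 to 8110 CPM with DMSO and 5920 to 7230 CPM with olaparib in UWB1.289, and 4240 to 4490 and 2740 to 2960 CPM in OVCAR3. The part of these markers in the result was not tested.

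Without the drug, IFIH1, EIF2AK2 and MAVS were higher in UWB1.289 than in OVCAR3, and ADAR was level. Of the 5 genes tested, 4 passed as higher and 0 as lower, with TLR3 and DDX58 left out by the filter on low counts, but most genes differed between the lines: 39.8% of 13366 were higher in UWB1.289 and 40.1% lower. IFIH1 and EIF2AK2 were called differentially expressed, against 18.7% of genes called upwards. The libraries did not overlap for the 4 genes that passed, as for 34.5% of all genes tested with UWB1.289 above. IFIH1 had a log2 fold change of 2.77 (SE 0.161, 95% CI 2.44 to 3.10, 6.81-fold, edgeR adjusted p = 1.04e-15). For EIF2AK2 it was 1.14 (SE 0.0797, 95% CI 0.975 to 1.30, edgeR adjusted p = 8.97e-14), or 2.20-fold. MAVS differed by 0.89 (SE 0.0873, 95% CI 0.708 to 1.07, edgeR adjusted p = 1.93e-10).

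DHX58 passed by a narrow margin in this comparison of the lines, with a log2 fold change of 0.60 (SE 0.328, 95% CI -0.0685 to 1.27, edgeR adjusted p = 0.0962), and its interval includes 0. It no longer passed in 10 of 14 alternatives, including the replicate block (0.60, adjusted p = 0.162), DESeq2 (adjusted p = 0.194) and the fits that left out replicate 2, 3 or 4 of either group (adjusted p = 0.129 to 0.198). The count of genes that passed was 3 at an unadjusted p below 0.05, which 10371 of the 13366 genes tested reached. It was 3 with the block, and shares over all genes were not taken for the block or DESeq2. DESeq2 tested all 7 genes and passed 5, of which IFIH1, EIF2AK2 and MAVS were higher in UWB1.289. TLR3 and DDX58 passed with lower counts there. TLR3 differed by -1.83 on the log2 scale (SE 0.629, DESeq2 adjusted p = 0.00759), and it also passed as lower in edgeR without the filter (-1.82, adjusted p = 0.000463) and in the fit of all 16 libraries (-1.84, adjusted p = 0.00623). DDX58 passed on 11 counts in OVCAR3 against 0 in UWB1.289 (adjusted p = 0.0289 with DESeq2 and 0.00924 in edgeR without the filter). Since the level of RIG-I RNA is not read from these counts, no order of the lines is taken from this. The TLR3 libraries of the lines overlapped, with 4 to 27 counts in OVCAR3 and 3 to 7 in UWB1.289. ADAR had a log2 fold change of -0.0015 (SE 0.0779, 95% CI -0.161 to 0.158, edgeR adjusted p = 0.986), and its sign changed with the settings. The summed white blood cell markers were at 7.66 to 11.6 CPM in UWB1.289 and 1.93 to 2.90 CPM in OVCAR3. The stromal and endothelial sum was 49.1 to 71 against 24 to 31.3 CPM and the carcinoma sum 7510 to 8110 against 4240 to 4490 CPM. The part of these markers in this comparison was not tested.

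Across the 16 libraries, after the mean of each line was removed, the levels of IFIH1, DHX58, EIF2AK2 and ADAR ran together. Pearson's r of log2 CPM was 0.97 for EIF2AK2 with ADAR, 0.91 for IFIH1 with EIF2AK2, 0.90 for IFIH1 with ADAR and 0.84 for IFIH1 with DHX58. MAVS had r between -0.22 and -0.06 with these and TLR3. The points share the libraries and the olaparib groups, and the values are descriptive. The genes most like IFIH1 among 13233 candidates were XAF1 (r = 0.97), SP100 (0.96) and OAS1 (0.95). ADAR was nearest to IFI44L (0.98), PARP9 (0.97) and EIF2AK2 (0.97), and EIF2AK2 to ADAR, IFI44L (0.97) and HERC5 (0.97). DHX58 was nearest to ISG20 (0.90), LBH (0.90) and RHBDD3 (0.89). For MAVS the nearest genes reached less, NCBP1 0.75, SRP68 0.75 and PPP1R12B 0.73, and for TLR3 they were ZNF830 (0.82), ELAVL2 (0.79) and FAM76A (0.78).

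The other genes of these routes were described from 8 lists with 85 genes, all in the table. In UWB1.289 20 of the 65 tested rose with olaparib and 1 fell, with a median log2 fold change of 0.10, where 7.77% of all genes tested rose and 6.10% fell. In OVCAR3 13 of 63 rose and 5 fell, with a median of 0.08. There 15.5% of all genes rose and 16% fell, so the share that rose was near the background and the share that fell, on 5 genes, was below it. The difference between the lines passed for 11 of 66 genes towards UWB1.289 and for 4 towards OVCAR3, beside 5.09% and 5.83% of all genes. The counts of each list were read against these shares.

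**Figure D4:**
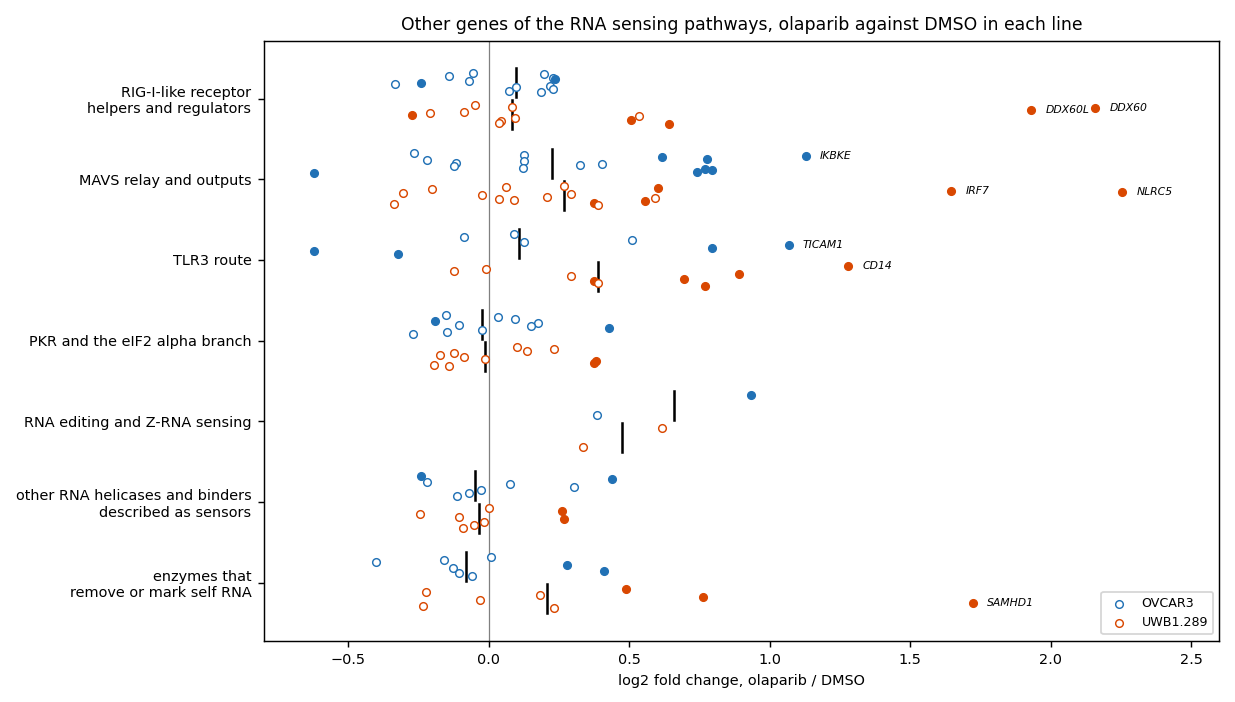
Log2 fold change of olaparib against DMSO for the tested genes of 7 lists (the interferon genes had too few counts), OVCAR3 in blue and UWB1.289 in orange, filled where the gene passed the test, with a black line at the median of each list; heights within a row only separate the points. The genes called differentially expressed are named, IKBKE and TICAM1 in OVCAR3 and DDX60, DDX60L, IRF7, NLRC5, CD14 and SAMHD1 in UWB1.289.

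Among 13 helpers and regulators of the RIG-I-like receptors, all tested, 4 rose and 1 fell in UWB1.289, beside 7.77% and 6.10% of all genes tested. In OVCAR3 1 rose and 1 fell, no more than the background of 15.5% and 16%. DDX60 and DDX60L, helicases linked to RIG-I signalling, rose most in UWB1.289. DDX60 went from 14.3 ± 3.72 to 63.9 ± 9.73 CPM (SD, n = 4) in UWB1.289 (2.16 on the log2 scale with an SE of 0.154, edgeR adjusted p = 7.75e-10). In OVCAR3 it was at 8.77 ± 2.16 CPM with DMSO and 7.99 ± 1.44 CPM with olaparib (-0.14, edgeR adjusted p = 0.676). DDX60L rose by 1.93 (SE 0.137, edgeR adjusted p = 7.62e-10) in UWB1.289. The DDX60 pair are related copies, and how reads that match both were counted is not given in the sources used here. ZC3HAV1, the antiviral zinc finger protein ZAP, rose by 0.64 and TRIM25, a ubiquitin ligase of RIG-I and ZAP, by 0.51 (edgeR adjusted p = 1.16e-05 and 7.1e-05). Each of these 4 responses was larger in UWB1.289 by the test of the difference, by 2.31 for DDX60, 1.71 for DDX60L, 0.46 for ZC3HAV1 and 0.41 for TRIM25 (edgeR adjusted p = 5.08e-07, 4.63e-06, 0.00978 and 0.00772). PCBP2, which promotes the breakdown of MAVS, fell by 0.27 in UWB1.289 and by 0.24 in OVCAR3 (edgeR adjusted p = 0.0201 and 0.0138).

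Of 18 genes that relay or carry out the MAVS signal, 5 of 17 tested rose and 0 fell in UWB1.289, beside 7.77% and 6.10% of all genes tested. In OVCAR3 6 of 16 rose and 1 fell, beside 15.5% and 16%. IRF7, an interferon-inducible transcription factor of the interferon genes, went from 12.5 ± 0.743 to 39.1 ± 2.61 CPM in UWB1.289 (1.65 on the log2 scale with an SE of 0.121, edgeR adjusted p = 1.22e-09). In OVCAR3 it rose from 7.15 ± 0.898 to 12.3 ± 0.643 CPM (0.77, SE 0.168, edgeR adjusted p = 0.00200), and the lines differed in this response by 0.87 (edgeR adjusted p = 0.00322). NLRC5, a regulator of MHC class I genes, rose in UWB1.289 from 0.812 to 4.02 CPM (2.26, SE 0.358, edgeR adjusted p = 0.000164). It had 4 to 9 counts per library with DMSO and 21 to 31 with olaparib. NLRC5 thus entered the test, and the count of 5, only through the group where it was high. In OVCAR3, at 2 to 15 counts per library, it did not pass the filter on low counts. IKBKE, a kinase that activates IRF3 and IRF7, was the largest rise in OVCAR3, from 9.57 ± 1.26 to 20.9 ± 2.78 CPM (1.13, SE 0.154, edgeR adjusted p = 1.67e-05). The signalling adaptors TRAF3 (0.79, edgeR adjusted p = 1.71e-05) and TRAF2 (0.77, edgeR adjusted p = 0.000577) rose there as well. In UWB1.289 IKBKE, TRAF2 and TRAF3 rose by 0.60, 0.56 and 0.37. For the difference between the lines, 3 of 17 genes of this list passed in each direction, beside 5.09% and 5.83% of all genes. Among them were TRAF5 (-1.07, edgeR adjusted p = 0.012) and TRAF6 (1.01, edgeR adjusted p = 0.0201). In OVCAR3 TRAF5 changed by 0.74 and TRAF6 by -0.62 (edgeR adjusted p = 0.0246 and 0.0103). TRAF5 and TRAF6 did not pass in UWB1.289. IRF3 rose by 0.62 in OVCAR3 (edgeR adjusted p = 0.00698) and was at -0.20 in UWB1.289 (adjusted p = 0.261), the responses differing by -0.82 (edgeR adjusted p = 0.00420).

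The list for the route of TLR3 had 13 genes, among them genes of other Toll-like receptors. In UWB1.289 5 of 9 tested rose and 0 fell, beside 7.77% and 6.10% of all genes tested. In OVCAR3 2 of 8 rose and 2 fell, beside 15.5% and 16%. TICAM1, the adaptor of TLR3, rose in both lines. In OVCAR3 the rise was 1.07 on the log2 scale (12.2 ± 4.54 to 25.3 ± 6.45 CPM, SE 0.225, edgeR adjusted p = 0.00152), and in UWB1.289 it was 0.70 (19.9 ± 1.89 to 32.2 ± 6.52 CPM, SE 0.141, edgeR adjusted p = 0.00221). UNC93B1, the chaperone that brings TLR3 to endosomes, rose in UWB1.289 by 0.77 (edgeR adjusted p = 4.97e-05) and fell in OVCAR3 by 0.32 (edgeR adjusted p = 0.0845), and the difference of 1.09 passed (edgeR adjusted p = 6.87e-05). MYD88, the adaptor of other Toll-like receptors, rose by 0.89 in UWB1.289 (edgeR adjusted p = 0.00111), and CD14, a co-receptor that is also among the white blood cell markers above, by 1.28 (edgeR adjusted p = 0.00374). TLR7, TLR8 and TLR9, the endosomal receptors of single-stranded RNA and of DNA, had at most 1 count in any library, and TLR9 shares 99.8% of its last 500 exonic bases with another gene on its strand.

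The branch of PKR and eIF2 alpha had 11 genes tested. In UWB1.289 2 rose and 0 fell, beside 7.77% and 6.10% of all genes tested. In OVCAR3 1 rose and 1 fell, beside 15.5% and 16%. The median log2 fold changes were -0.01 in UWB1.289 and -0.02 in OVCAR3. Of the 5 genes for RNA editing and Z-RNA sensing, 2 were tested in each line. ADARB1, a second editing enzyme, rose by 0.93 in OVCAR3 (edgeR adjusted p = 0.000541) and was at 0.62 in UWB1.289 (adjusted p = 0.128). ZBP1, which binds Z-form RNA, had 5 to 14 counts in OVCAR3 with DMSO and 0 to 4 with olaparib, and 0 to 8 and 3 to 23 in UWB1.289. ZBP1 entered only the fit for the difference between the lines, through libraries of OVCAR3 with DMSO and UWB1.289 with olaparib, where it was high. The difference passed (4.74, SE 1.09, edgeR adjusted p = 0.00524), but on too few counts for the call of differential expression. All 8 counts of UWB1.289 with DMSO were in 1 library, so the size of this difference is not read as a result.

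Among 11 other RNA helicases and binders described as sensors, 2 of 8 tested rose and 0 fell in UWB1.289, beside 7.77% and 6.10% of all genes tested. In OVCAR3 1 rose and 1 fell, under the background of 15.5% and 16%. The 1 that rose there was DDX21, by 0.44 (edgeR adjusted p = 8.05e-05). Of the enzymes that remove or mark self RNA, 3 of 8 tested rose in UWB1.289, 2 rose in OVCAR3 and 0 fell in either. Of all genes tested, 7.77% rose and 6.10% fell in UWB1.289, and 15.5% rose and 16% fell in OVCAR3. SAMHD1, which degrades nucleotides for DNA synthesis and is an interferon-stimulated gene, went from 29.6 ± 5.64 to 97.3 ± 5.75 CPM in UWB1.289 (1.72 on the log2 scale with an SE of 0.117, edgeR adjusted p = 3.33e-10) and from 23.2 ± 2.20 to 30.7 ± 1.96 CPM in OVCAR3 (0.41, SE 0.116, edgeR adjusted p = 0.0132). The difference between the lines was 1.31 (edgeR adjusted p = 2.59e-06). PNPT1, an RNase that clears double-stranded RNA of mitochondria, rose by 0.76 in UWB1.289 (edgeR adjusted p = 2.2e-05) and by 0.28 in OVCAR3 (edgeR adjusted p = 0.0822). The 9 interferon genes had too few counts for any test. IFNB1 had 1 count in the 16 libraries together, and IFNL1 had 0 to 9 counts per library. At this depth a change in these ligands was not detectable.

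Without the drug, 37 of 64 genes of the lists were higher in UWB1.289 than in OVCAR3 and 15 were lower. Of all genes tested, 39.8% were higher and 40.1% lower in this comparison. Leaving out those called differentially expressed with olaparib, the genes of smallest p were DHX33, a helicase described as an RNA sensor (1.72, edgeR adjusted p = 5.64e-15), MLKL, the executor of necroptosis downstream of ZBP1 (3.63, 16.7 CPM in UWB1.289 against 1.33 in OVCAR3, edgeR adjusted p = 1.5e-14), IRF3 (1.89, edgeR adjusted p = 7.79e-14), LRRFIP1 (0.91, edgeR adjusted p = 1.53e-12) and RNMT, an enzyme of the RNA cap, which was lower (-1.01, edgeR adjusted p = 2.26e-12).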

How the data were processed

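RNA of OVCAR3 and UWB1.289 cells was sequenced from QuantSeq 3' mRNA libraries. The authors used BBDuk for trimming, STAR 2.7.9a for alignment to hg38 and featureCounts 2.0.0 with GENCODE release 38, and deposited raw counts per gene. How strand, overlapping genes and multiply mapped reads were treated is not given in the sources used here. Totals of 5599571 to 7730228 counts leave a large counting error for genes near 10 counts per library. A group whose libraries all had 3 counts or fewer was taken as being at the floor.

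Tests used edgeR 4.0.16 in R 4.3.3 (TMM, filterByExpr, quasi-likelihood F test), fitted on each comparison's 8 libraries and, for the difference between the lines, on all 16, with Benjamini-Hochberg adjustment over all genes tested. The 95% intervals cover the fitted model's error. DESeq2 1.42.0 and the other alternatives are treated in the closing section. Coordinates are from GENCODE release 44 and promoters from RefSeq. Same-numbered UWB1.289 libraries with DMSO and olaparib deviated together (r = 0.14 to 0.25 over 9159 genes), but DMSO replicate 1 was nearest to olaparib replicate 2. Pairing was therefore not settled, and the main tests did not use it. A fit with the replicate number as a block is given in the closing section. No pair of libraries was identical. One gene stood in the lists under an older and a newer symbol and was counted once.

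The genes, the lists and the tests were chosen with earlier results of these data known. The text names the 7 genes, list genes differentially expressed with olaparib, the 5 others of smallest adjusted p in each comparison, and the 3 genes most like each of the 7. PCBP2, TLR7, TLR8, TLR9, IFNB1, IFNL1, the values in the other comparisons and the marker genes were named after their values were seen.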

Additional observations from a re-analysis of the deposited data

Results flagged for a closer look

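The olaparib effect differed between the lines for 4 genes by the interaction test in edgeR over 16 libraries. The log2 effect in UWB1.289 minus that in OVCAR3 was 1.75 for IFIH1, 1.73 for DHX58, 0.78 for EIF2AK2 and 0.68 for ADAR. Each of these passed in all alternatives in which the gene was tested, and DHX58 was not tested when an average count above 50 was asked for. Line, BRCA1 status, medium and dose cannot be told apart in these values.

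In 2 of the 27 sets of 4 libraries with any counts, 1 library lay apart from the other 3 beyond Dixon's 95% limit. DHX58 was at 2.15 CPM in OVCAR3 DMSO replicate 1 with a gap to its neighbour of 0.930 of the whole range. EIF2AK2 was at 113 CPM in OVCAR3 olaparib replicate 4 with a gap of 0.915 of the range. Chance marks about 1 in 20 such sets.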

How the results depend on the processing

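In UWB1.289, the 4 increases with olaparib kept direction and call in every alternative in which the gene was tested, as did the 4 that passed the difference between the lines. The log2 fold change of IFIH1 in UWB1.289 ranged from 1.72 to 1.88. With an average count above 50 required, DHX58 was not tested, and the number differentially expressed was 1 in UWB1.289 and 1 for the difference between the lines. In OVCAR3, leaving out 1 library gave 0 to 1 genes that passed and 0 to 1 differentially expressed, the 1 being TLR3. Leaving out 1 library moved the log2 fold change of IFIH1 in OVCAR3 between -0.0798 and 0.16, that of ADAR in OVCAR3 between -0.0036 and 0.0817, that of MAVS in UWB1.289 between -0.11 and 0.0090, and that of ADAR between the lines with DMSO between -0.0421 and 0.0524. The latter was also 0.0129 with DESeq2, 0.0059 with DESeq2's size factors, 0.0181 without a filter and 0.0008 with all 16 libraries, and passed nowhere. The cause of these changes of sign was not tested.

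The replicate block left 4 genes passed and 2 differentially expressed in UWB1.289 (IFIH1 1.80, adjusted p = 2.73e-12). It changed no call with olaparib or in the difference between the lines, and with DMSO it ended that of DHX58 (0.60, adjusted p = 0.162). In OVCAR3 same-numbered libraries had r of 0.0583 to 0.184 over 9365 genes, and DMSO replicate 1 was nearest to olaparib replicate 4. Whether the numbers mark pairs is not settled in either line. TLR3 and DHX58 are limited by depth.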
